A study of Homo sapiens with 5 samples.

Results

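Long noncoding RNA (lncRNA) genes are transcribed into RNAs that are not translated, and their promoters were examined here in MCF10A cells, an immortalized, non-tumorigenic mammary epithelial line. Open chromatin was mapped with ATAC-seq, in which the Tn5 transposase inserts adapters into accessible DNA. The series holds 5 libraries of 1 group, cultured without further treatment in medium with 5% horse serum, EGF (20 ng/ml), hydrocortisone (0.5 µg/ml), cholera toxin (100 ng/ml) and insulin (10 µg/ml), at a passage number below 30, and read in pairs of 75 bases. The libraries were pooled by the authors before regions of local read enrichment, termed hotspots, were called, so spread between replicates and sequencing depth are both unknown here. A hotspot was taken as a lncRNA promoter hotspot when it overlapped the 1000 bp on either side of a lncRNA transcription start site (TSS) of GENCODE release 44 and lay more than 1000 bp from every protein-coding TSS, on the autosomes only. Of 181723 hotspots, 174422 were autosomal and 5614 of these (3.22%) met the rule. They are set beside 23987 protein-coding promoter hotspots, which lay within 1000 bp of a protein-coding TSS, and 144821 hotspots away from both kinds of TSS. As a check of the cell type, promoter hotspots were looked up at 14 genes that mark basal breast cells, and 13 had one, the exception being TP63, beside 78.2% of all protein-coding genes. Of 10 genes that mark other tissues, 4 had one, with scores of at most 8.67.

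Many lncRNAs act in the nucleus, where they scaffold nuclear bodies or bind chromatin near their own gene, whereas others serve as precursors that are processed into small nucleolar RNAs (snoRNAs) or microRNAs. Promoters of lncRNAs resemble those of protein-coding genes in outline, with an accessible region over the TSS that sequence-specific transcription factors bind, but they more often lack a CpG island and more often arise from enhancer-like or repeat-derived sequence. AP-1 factors, which recognize TGACTCA and TGAGTCA, are known for opening distal elements in epithelial cells, while SP/KLF, NRF1, YY1 and ETS factors are known from CpG-rich promoters.

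The central 120 bp of 10 hotspots at well-known lncRNA genes are printed to show both kinds of promoter sequence, from hg38 and 5′ to 3′ on the strand of the gene. Each gene was picked together with the words to be marked, so the matches in these runs illustrate the words and are not a result. None of these windows overlapped an annotated coding or untranslated region of a protein-coding gene. The first 4 held the AP-1 word, which is in capitals, as is the NFY word CCAATGA in the first pair. Of all autosomal hotspots, 5.90% held TGACTCA or TGAGTCA on either strand of their central 120 bp, and 3.89% held an NFY word, spelled CCAATCA or CCAATCG or CCAATGA or else CCAATGG. The windows were chr2:87455339-87455458 for CYTOR on the plus strand, chr2:111495034-111495153 for MIR4435-2HG on the minus strand, chr5:91314430-91314549 for LUCAT1 on the minus strand and chr1:198937410-198937529 for MIR181A1HG on the minus strand. The TSS stood at base 71 of the CYTOR run, 62 of MIR4435-2HG, 51 of LUCAT1 and 59 of MIR181A1HG.
CYTOR: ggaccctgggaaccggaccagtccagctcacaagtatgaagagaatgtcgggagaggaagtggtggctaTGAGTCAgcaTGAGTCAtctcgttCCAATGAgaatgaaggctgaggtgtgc
MIR4435-2HG: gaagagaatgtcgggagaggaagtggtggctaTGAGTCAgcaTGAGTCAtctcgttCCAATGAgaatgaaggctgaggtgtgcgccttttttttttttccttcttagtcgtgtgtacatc
LUCAT1: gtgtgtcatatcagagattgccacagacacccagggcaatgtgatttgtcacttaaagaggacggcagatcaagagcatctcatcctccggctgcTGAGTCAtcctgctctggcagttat
MIR181A1HG: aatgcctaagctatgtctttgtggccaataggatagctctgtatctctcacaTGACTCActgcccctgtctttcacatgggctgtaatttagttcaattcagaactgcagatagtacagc
CYTOR and MIR4435-2HG are near-identical genes on chromosome 2 whose transcripts act in cell growth, and shifted by 37 bases the 2 runs agreed at 83 of 83 bases. Each run holds 2 copies of TGAGTCA and 1 of CCAATGA. The annotated TSS lies within the first AP-1 copy in CYTOR and within the NFY word in MIR4435-2HG, so the annotation places the 2 starts at different bases of the shared sequence. At 94.5% (CYTOR) and 94.4% (MIR4435-2HG), nearly all 32-base words of the 2 hotspots occurred more than once in the genome, and whether the reads of these genes could be told apart was not measured.

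The next runs hold words of CpG-rich promoters. The SP/KLF word, CCCCGCCC or GGGCGGGG, is in capitals at MALAT1 (plus strand, chr11:65497428-65497547), MIR210HG (minus strand, chr11:568511-568630) and SNHG8 (plus strand, chr4:118278589-118278708), and it was found in the central 120 bp of 2.22% of all autosomal hotspots. At MALAT1, 2 SP/KLF words were present, and the second adjoins a match to the NRF1 motif, which 0.0648% of all autosomal hotspots held. The YY1 word ATGGCGGC is shown for NORAD (minus strand, chr20:36050670-36050789) and was held by 0.468% of all autosomal hotspots.
MALAT1: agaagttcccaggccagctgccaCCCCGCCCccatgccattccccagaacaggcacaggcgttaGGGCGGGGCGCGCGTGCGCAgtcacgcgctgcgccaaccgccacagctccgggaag
MIR210HG: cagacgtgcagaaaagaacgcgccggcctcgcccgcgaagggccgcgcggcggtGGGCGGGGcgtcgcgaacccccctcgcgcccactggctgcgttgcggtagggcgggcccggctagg
SNHG8: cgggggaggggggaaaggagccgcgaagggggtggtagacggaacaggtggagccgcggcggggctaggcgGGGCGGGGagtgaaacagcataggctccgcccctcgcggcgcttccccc
NORAD: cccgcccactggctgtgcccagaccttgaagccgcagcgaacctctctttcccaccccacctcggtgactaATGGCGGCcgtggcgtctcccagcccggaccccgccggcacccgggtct
The last 2 runs show a TEAD word (CATTCCA or CATTCCT, 5.02% of all autosomal hotspots) at UCA1 (plus strand, chr19:15828869-15828988) and a CTCF match (0.537%) at SNHG20 (plus strand, chr17:77086633-77086752).
UCA1: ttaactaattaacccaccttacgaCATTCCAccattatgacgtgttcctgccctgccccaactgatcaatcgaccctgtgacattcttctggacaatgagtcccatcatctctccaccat
SNHG20: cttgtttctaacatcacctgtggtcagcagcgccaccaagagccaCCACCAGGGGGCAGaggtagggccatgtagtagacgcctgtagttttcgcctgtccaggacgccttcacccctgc
A match describes the letters in the window and does not show that a factor was bound.

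The hotspots at lncRNA promoters were intermediate in score and width. Their median score was 6.36 (95% interval of the median 6.29 to 6.41), against 9.37 (9.13 to 9.62) for protein-coding promoter hotspots and 5.61 for hotspots away from both. The score is the number that the authors' run of the program Hotspot gave to each region and is used only to rank regions. The middle 50% of the lncRNA promoter hotspots scored between 5.03 and 10.9, and the highest scored 225. The median width was 330 bp (325 to 334) for lncRNA promoter hotspots, 555 bp (541 to 568) for protein-coding ones and 272 bp (272 to 273) for those away from both. Of the lncRNA promoter hotspots, 792 (14.1%, Wilson 95% interval 13.2 to 15.04) scored in the top decile of autosomal hotspots, which by definition held 10.0% of all autosomal hotspots. The same share was 35.4% (34.8 to 36.0) among protein-coding promoter hotspots and 5.64% (5.52 to 5.76) among those away from both. All intervals cover counting error only.

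Wider hotspots scored higher in all 3 classes, and the 3 classes differed most among the wide ones. Among hotspots over 200 and up to 400 bp, which made up 51.4% of the lncRNA promoter hotspots, the median score was 5.61 at lncRNA promoters, 5.50 at protein-coding promoters and 5.61 away from both. Over 800 bp the medians were 18.8 (17.8 to 20.1) at lncRNA promoters, 25.5 (25.2 to 25.9) at protein-coding promoters and 13.5 (13.1 to 13.8) away from both. Only 13.0% of lncRNA promoter hotspots were that wide, against 34.5% of protein-coding and 3.69% of the others.

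**Figure D1:**
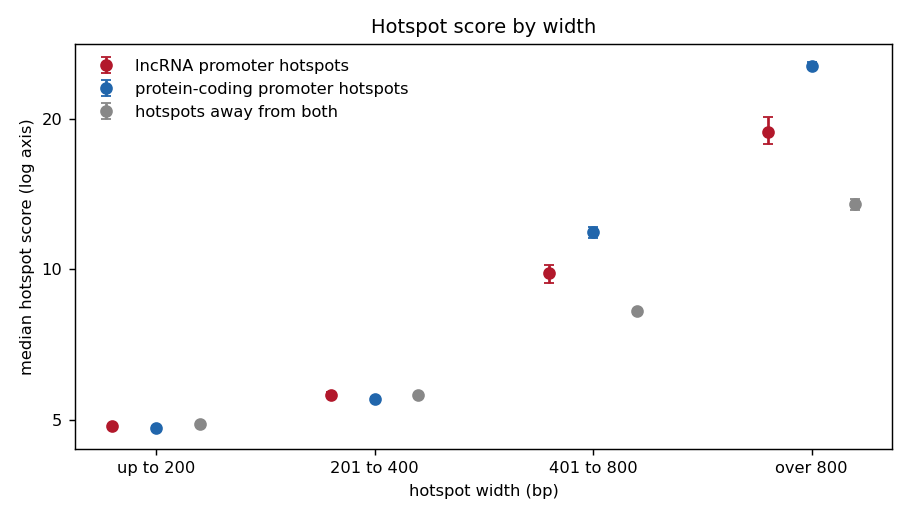
Median hotspot score (log axis) in 4 classes of hotspot width, for lncRNA promoter hotspots, protein-coding promoter hotspots and hotspots away from both; bars are 95% intervals of the median. The classes lie together up to 400 bp, and over 800 bp the medians are 18.8, 25.5 and 13.5 in that order.

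Many lncRNA promoter hotspots lay beside the annotated TSS and not on it. A lncRNA TSS was covered by 2067 of the 5614 (36.8%, interval 35.6 to 38.1), whereas 59.2% (58.6 to 59.9) of protein-coding promoter hotspots covered a protein-coding TSS. Wide hotspots cover a TSS more easily, and protein-coding promoter hotspots were wider. The autosomes also held 141207 protein-coding TSSs against 46988 lncRNA ones. The part of width and of TSS number in these shares was not tested. Hotspots that covered a lncRNA TSS had a median score of 10.1 (9.51 to 10.5) and those that covered none 5.61 (5.61 to 5.66). Their median widths were 531 bp and 299 bp in that order. In the covering ones, the midpoint had a median offset from the nearest lncRNA TSS of -5 bp (negative means upstream). The middle 50% lay between -88.5 and 74 bp. Covering a TSS itself keeps the midpoint near one, so these offsets cannot show whether hotspots centre on the TSS. Just inside the window, the 319 hotspots over 900 bp from a lncRNA TSS had a median score of 5.61, and the 317 just outside, up to 1100 bp, also 5.61. At the other boundary, the 65 lncRNA promoter hotspots up to 1100 bp from a protein-coding TSS had a median of 6.03, and the 47 left out at over 900 bp had 6.23.

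**Figure D2:**
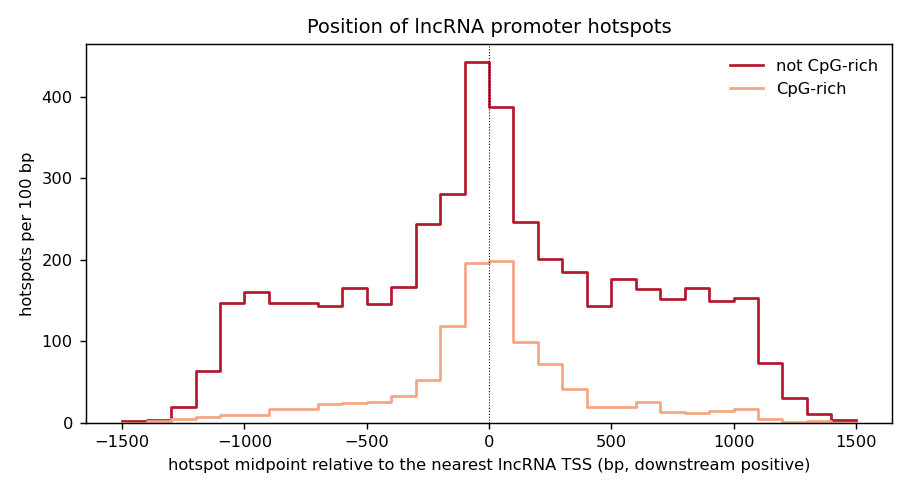
Number of lncRNA promoter hotspots per 100 bp by the position of the midpoint relative to the nearest lncRNA TSS (bp, downstream positive), split by CpG content. Both curves are highest beside the TSS, on a broad plateau of hotspots that are not CpG-rich.

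CpG content divided these promoters. A hotspot was called CpG-rich when the 500 bp around its midpoint had at least 50% G and C and an observed over expected CpG ratio of at least 0.6. By this measure 1082 lncRNA promoter hotspots (19.3%, interval 18.3 to 20.3) were CpG-rich, against 49.9% (49.2 to 50.5) of protein-coding promoter hotspots and 3.94% (3.84 to 4.04) of those away from both. The CpG-rich ones covered a TSS in 65.3% of cases (62.5 to 68.1) and the others in 30.0% (28.7 to 31.4). The CpG-rich ones were also wider, with a median of 592 bp against 315.5 bp. Where a CpG-rich hotspot covered a lncRNA TSS (n = 707), the median score was 16.2 (15.01 to 17.6), and where it covered a protein-coding TSS (n = 10435) it was 22.9 (22.5 to 23.2). Without CpG richness the order of the 2 classes was not the same, with 7.99 (7.70 to 8.34) over 1360 lncRNA promoter hotspots on a TSS and 7.58 (7.39 to 7.87) over 3776 protein-coding ones, whose intervals overlap. The classes compared also differed in width, with medians of 709 and 972 bp when CpG-rich and 399.5 and 440 bp when not. At least 50% of the 32-base words were repeated in the genome in 25.7% and 1.40% when CpG-rich. Without CpG richness this held for 15.6% and 5.99%. The part of width and repeated sequence in these scores was not tested. The median GC content of the central 120 bp was 55.8% at lncRNA promoters, 62.5% at protein-coding promoters and 51.7% away from both.

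Several motif words differed in share between the classes. AP-1 words lay in the central 120 bp of 365 lncRNA promoter hotspots (6.50%, interval 5.89 to 7.18), of 3.34% (3.12 to 3.57) of protein-coding promoter hotspots and of 6.30% (6.18 to 6.43) of those away from both. Over the whole hotspot the AP-1 shares were 16.2%, 11.9% and 12.8% in that order. TEAD words, read by effectors of Hippo signalling, had shares of 4.56% (4.04 to 5.14), 3.06% (2.85 to 3.29) and 5.36% (5.25 to 5.48) in the same order, but over the whole hotspot the order was another, with 14.7%, 14.9% and 12.4%. SP/KLF words were in 189 lncRNA promoter hotspots (3.37%, 2.93 to 3.87), in 9.40% (9.04 to 9.78) of protein-coding promoter hotspots and in 0.99% (0.94 to 1.04) of the others. The TFAP2 word GCCNNNGGC was in 8.12% (7.44 to 8.87) of lncRNA promoter hotspots, 13.2% (12.8 to 13.7) of protein-coding ones and 4.56% (4.46 to 4.67) of the others. The ETS word CCGGAAGT was in 0.285% (0.176 to 0.462), 1.24% (1.11 to 1.39) and 0.0953% (0.0807 to 0.113), and the CTCF motif was in 0.837% (0.630 to 1.11), 0.384% (0.313 to 0.470) and 0.551% (0.514 to 0.590). Over the whole hotspot CTCF had 2.16%, 1.22% and 0.969%, so that the last 2 classes changed places. The central 120 bp were also compared among hotspots with under 50% of their 32-base words repeated in the genome. There the CTCF shares were 0.955% (0.705 to 1.29), 0.400% (0.325 to 0.492) and 0.804% (0.749 to 0.863). The intervals of lncRNA promoter hotspots and of hotspots away from both overlapped in that comparison. The classes also differed in GC content, as given above, and its part in the motif shares was not tested. Each motif was searched on both strands.

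**Figure D3:**
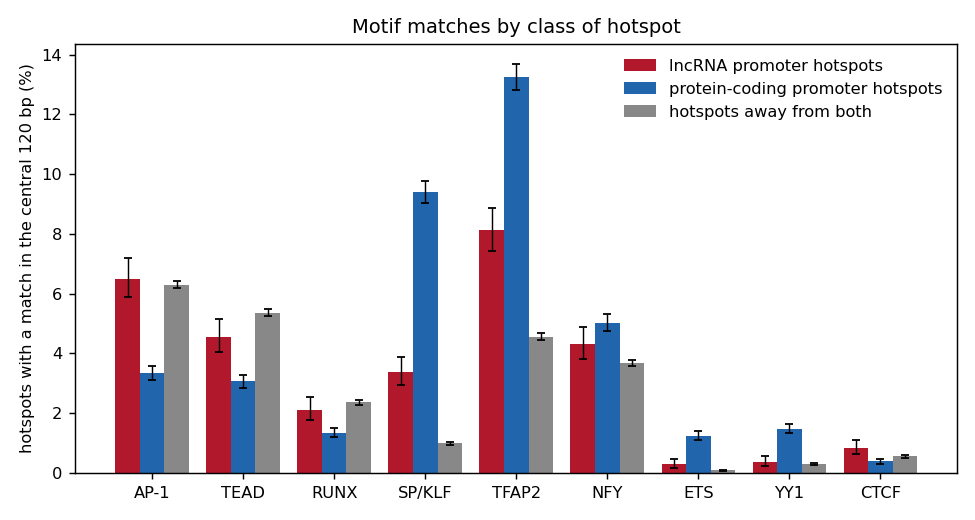
Share of hotspots (%) with a match to each of 9 motifs in the central 120 bp, for lncRNA promoter hotspots, protein-coding promoter hotspots and hotspots away from both; bars are Wilson 95% intervals. For AP-1 the shares are 6.50%, 3.34% and 6.30%, and for SP/KLF 3.37%, 9.40% and 0.99%, in that order.

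Within the lncRNA promoter hotspots, AP-1 words were in 1.02% (0.569 to 1.81) of the CpG-rich ones and 7.81% (7.07 to 8.63) of the others, while SP/KLF words were in 10.5% (8.84 to 12.5) of the CpG-rich ones and 1.65% (1.32 to 2.07) of the others. For CTCF the 2 shares were 0.924% (0.503 to 1.69) and 0.816% (0.593 to 1.12), and for NFY 4.81% (3.68 to 6.25) and 4.19% (3.65 to 4.82), with intervals that overlap. The SP/KLF word holds only G and C and includes a CpG, whereas the AP-1 words hold none. CpG richness was called on bases that include the searched window, whose median GC content was 67.5% in the CpG-rich ones and 54.2% in the others. The part of base composition in these shares was not tested. The highest AP-1 share among these sets was at hotspots that were not CpG-rich and covered a lncRNA TSS, with 153 of 1360 (11.25%, interval 9.68 to 13.0), against 6.34% (5.54 to 7.24) of those that were not CpG-rich and covered none. Protein-coding promoter hotspots of the same kind, not CpG-rich and on a TSS, held an AP-1 word in 7.10% (6.32 to 7.96). Those not CpG-rich and on no TSS held one in 5.35%, so the share was higher on a TSS in both classes. Hotspots away from both that were not CpG-rich had 6.51% (6.39 to 6.65). The lncRNA promoter hotspots on a TSS also had a higher median score (7.99 against 5.61) and width (399.5 against 297 bp) than those on none. The part of score and width in the AP-1 shares was not tested. The hotspots of CYTOR, MIR4435-2HG, LUCAT1 and MIR181A1HG, whose sequences are printed above, belong to the 153 lncRNA promoter hotspots. The TATA word TATAAA lay 40 to 20 bp upstream of 46 of the 5852 lncRNA TSSs that a hotspot covered (0.786%, 0.590 to 1.05), of 0.649% (0.589 to 0.715) of protein-coding TSSs that one covered and of 1.24% (1.09 to 1.40) of TSSs of lncRNA genes without any hotspot.

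Of 18390 autosomal lncRNA genes, 4543 (24.7%, interval 24.1 to 25.3) had a lncRNA promoter hotspot, 2899 (15.8%) had only a hotspot shared with a protein-coding promoter and 10948 (59.5%) had neither. For comparison, 14949 of 19111 protein-coding genes (78.2%) had a promoter hotspot. Genes with more annotated TSSs had more windows and were more often hit, with 18.95% (18.3 to 19.7) of those with 1 TSS and 57.6% (54.2 to 60.9) of those with 10 or more. The names of the genes divided them further. Divergent transcripts, named -DT because they run away from a protein-coding neighbour, had only a shared hotspot in 471 of 580 (81.2%) and one of their own in 64 (11.0%). Antisense genes (-AS) had only a shared one in 35.4% and one of their own in 403 of 1778 (22.7%), and LINC genes, which lie mostly between protein-coding genes, had one of their own in 804 of 2223 (36.2%, 34.2 to 38.2). Host genes of microRNAs (MIR..HG) had one in 43 of 79 (54.4%, 43.5 to 65.0) and SNHG genes, which host snoRNAs, in 18 of 28 (64.3%, 45.8 to 79.3). Only a shared one was present in 1.80% of LINC, 8.86% of MIR..HG and 32.1% of SNHG genes. The rule gives hotspots near a protein-coding TSS to the protein-coding class. Groups that start there, such as -DT, therefore have few of their own by that rule, and the own shares do not rank the groups. Genes known only by an identifier had one of their own in 22.2%, and they accounted for 3279 of the 5614 hotspots. Most hotspots (5235) lay at 1 lncRNA gene, and 3492 genes had a single hotspot.

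MALAT1 and NEAT1, the neighbouring nuclear RNAs that mark nuclear speckles and build paraspeckles, both had a hotspot over the TSS. Of the 7 annotated genes listed as nuclear or abundant, 6 had a lncRNA promoter hotspot, against the 24.7% of all lncRNA genes, with a median best score of 26.2 against 7.12 over all lncRNA genes with a hotspot. Best score means the highest-scoring lncRNA promoter hotspot of a gene. The lists were drawn up with earlier results of these data known, so their counts are descriptions. Nor were they matched to all lncRNA genes for the number of TSSs, which is high in some listed genes (132 in PVT1, 111 in SNHG14). Genes with more TSSs were more often hit, so the part of TSS number in the list shares is unknown. MALAT1 scored 29.4 in a CpG-rich hotspot of 1158 bp (chromosome 11, 65496909 to 65498066), and NEAT1 17.8 in one of 1584 bp (chromosome 11, 65421998 to 65423581). NORAD, a cytoplasmic RNA that binds PUMILIO proteins, scored 18 (chromosome 20, 36050242 to 36051216). PVT1, a long RNA gene beside MYC, scored 37.8 at an internal TSS (base 127859787), whereas the annotated gene begins at base 127794526. CYTOR scored 24.8 and MIR4435-2HG 27.7. The list median lies between the last 2, whose hotspots were mostly repeated sequence. With under 50% repeated, the best hotspot of MIR4435-2HG scored 5.29 and CYTOR had none. The remaining gene, OIP5-AS1, had only a hotspot shared with a protein-coding promoter, with a score of 34.9.

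Host genes of snoRNAs, whose introns carry the small RNAs that guide rRNA modification, had a promoter hotspot in most cases. Of 32 listed, 21 had a lncRNA promoter hotspot and 10 had only a shared one, leaving SNHG32 without, beside 24.7% and 15.8% of all lncRNA genes. The median best score was 22.2, and 13 of the 21 were in the top decile, beside 883 of the 4543 lncRNA genes with a hotspot. DANCR, which also restrains differentiation, scored 48.9 in a hotspot of 1254 bp (chromosome 4, 52711954 to 52713207). SNHG25 scored 38.3, SNHG8 32.7, SNHG29 31.3 and SNHG12 30.3, each with a hotspot over its TSS. At the low end, SNHG10 had a lncRNA promoter hotspot of 4.48 that covered no TSS of the gene, beside a shared hotspot of 49.3, and SNHG14 had 8 hotspots of at most 7.49. SNHG27 had the highest score of the list, 66.1, but it covered no TSS of the gene and 87.3% of the 32-base words of that hotspot occurred more than once in the genome. Shared hotspots scored 40.2 at GAS5, 34.0 at SNHG5 and 27.3 at SNHG1, which are hosts of the same kind.

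Among host genes of microRNAs, 23 of 31 had a lncRNA promoter hotspot, beside the 24.7% of all lncRNA genes. Their median best score was 17.3 and 12 were in the top decile, beside 883 of 4543. MIRLET7A1HG, a precursor of let-7, scored 45.2 and MIR17HG, which carries the growth-promoting miR-17 cluster, 42.1 across 2482 bp (chromosome 13, 91346953 to 91349434). MIR210HG, host of the hypoxia-induced miR-210, scored 32.9. MIR205HG, whose miR-205 is known from basal epithelium, scored 29.8 across 1883 bp (chromosome 1, 209427270 to 209429152), and MIR200CHG, whose miR-200c and miR-141 keep the epithelial state, 19.5 across 2188 bp (chromosome 12, 6961228 to 6963415). MIR34AHG, host of the p53 target miR-34a, scored 7.73 and MIR31HG 12. No hotspot lay at MIR122HG (liver), MIR1-1HG and MIR133A1HG (muscle), MIR155HG (blood) or MIR302CHG (pluripotent cells). Hosts of microRNAs known from neural tissue did have hotspots, with scores of 32.7 at MIR9-1HG, 12 at MIR137HG and 8.61 at MIR9-3HG, each over a TSS of the gene, and of 5.99 and 4.58 at the 2 genes for miR-124, which covered none. MIR663AHG scored 45.8.

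Imprinted lncRNAs are expressed from 1 parental allele. Of 13 listed, 8 had a lncRNA promoter hotspot and 4, H19, KCNQ1DN, IGF2-AS and AIRN, had none, beside 24.7% with one among all lncRNA genes. The median best score was 7.65, and 1 gene was in the top decile, beside 883 of 4543. This was KCNQ1OT1, which silences its neighbours in cis, with 22.2. GNAS-AS1 scored 15.2 and MEG3, of the DLK1 locus, 7.81. Of 7 genes listed for p53 and growth arrest, LINC-PINT (22.2) and NEAT1 had a lncRNA promoter hotspot, and PANDAR, PURPL and CDKN2B-AS1 had none. That share, 28.6%, is near the 24.7% of all lncRNA genes.

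Of 51 annotated lncRNAs listed for breast, epithelium or cancer, 22 had a lncRNA promoter hotspot, 13 had only a shared one and 16 had none, beside 24.7% with their own and 15.8% with only a shared one among all lncRNA genes. The median best score was 11.2 and 8 were in the top decile, beside 883 of 4543. DLEU2, a gene of the 13q14 tumour suppressor locus, scored 32.3 across 2830 bp, and HIF1A-AS3, antisense to the hypoxia regulator HIF1A, 24.4. LINC00511 scored 24.5, UCA1, first described in bladder cancer, 10.5, LUCAT1, a stress-induced RNA, 12 and LINC01133 12.2. CASC15 reached 51.3, though in a hotspot of which 100% of the 32-base words were repeated, and its best hotspot with under 50% repeated scored 16.1. DSCAM-AS1, BCAR4 and AFAP1-AS1 were among the 16 without a hotspot, whereas ELF3-AS1 (34.3) and GATA3-AS1 (33.1) had one that they share with the neighbouring protein-coding gene. Among 27 lncRNAs listed for other tissues, 14 had a lncRNA promoter hotspot. That share, 51.9%, was above both the 43.1% of the list for breast, epithelium or cancer and the 24.7% of all lncRNA genes, with TSS number not matched. The median best score was 7.66, and the highest were LINC00881 (21.5) and MIAT (20.4), neither of which covered a TSS of the gene. RMST, CARMN and LINC01551 were among the 13 without any.

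**Figure D4:**
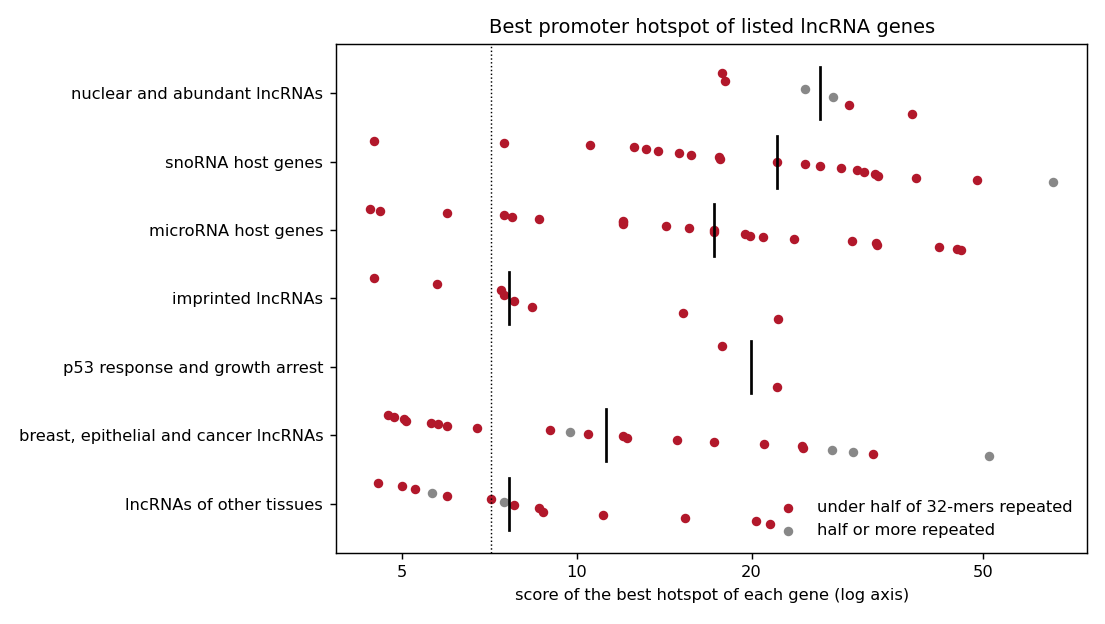
Score of the best lncRNA promoter hotspot (log axis) of each listed gene with one, by list; black bars are list medians, the dotted line is the median over all lncRNA genes with a hotspot, 7.12, and grey points are hotspots with at least 50% of their 32-base words repeated. The list medians run between 7.65 (imprinted) and 26.2 (nuclear and abundant).

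A few long genes held many hotspots. LINC00511 had 20 along 350 kb (84 TSSs), with scores of 4.48 at the lowest, 6.36 at the median and 24.5 at the highest, and 9 of the 20 covered one of its TSSs. Next came PVT1 with 13 and CASC19 with 11, which with PCAT1 (7) lie around MYC on chromosome 8. The 3 genes had 31 hotspots, of which PVT1 held the highest score, 37.8 (chromosome 8, 127859451 to 127860670). At CASC19 the highest was 27.5, with 97.04% of its 32-base words repeated, and without such hotspots it was 14.97. LINC00963 had 9, with a highest score of 33.7, and DRAIC 7, with 18.02. FAM182B, SNHG14 and SNHG27 had 8 each, and all 8 of SNHG27 had at least 50% of their 32-base words repeated. CASC15 had 7.

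Repeated sequence was frequent at the top of the list. The share of 32-base words of a hotspot that occur more than once in chromosomes 1 to 22, X, Y and M was computed, and in 1311 lncRNA promoter hotspots (23.4%, interval 22.3 to 24.5) it was at least 50%, against 8.16% (7.82 to 8.51) of protein-coding promoter hotspots and 33.1% (32.9 to 33.4) of those away from both. Whether read pairs of 75 bases could be placed there was not measured, and the part of repeated sequence in the scores was not tested. Of the 12 highest-scoring lncRNA promoter hotspots 11 had such a share, of the highest 100 there were 61 and of the highest 500 there were 189, against 43 of the highest 100 and 59 of the highest 500 protein-coding promoter hotspots and 99 of the highest 100 and 475 of the highest 500 hotspots away from both. With the repeated ones left out, the median score was 6.16 (6.03 to 6.33) at lncRNA promoters, 10.1 (9.76 to 10.4) at protein-coding promoters and 5.45 (5.43 to 5.47) away from both. The AP-1 shares of the central 120 bp were then 7.89% (7.13 to 8.74), 3.50% (3.27 to 3.75) and 8.96% (8.78 to 9.15) in that order. In this comparison the share away from both was above that at lncRNA promoters.

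The highest score was 225 at FAM66E (chromosome 8, 7954842 to 7955392), where 92.9% of the 32-base words were repeated. ROCK1P1, a partial copy of the kinase gene ROCK1, followed with 203 across 7159 bp (chromosome 18, 105488 to 112646), the widest of all. UBE2Q2P2 scored 139 (chromosome 15, 82354624 to 82355571) and TRIM16L 73.8. Of the 12, 6 carry the annotation's tag for overlap with a pseudogene. ENSG00000289901 (chromosome 13, 109424060 to 109424354) scored 125, and 71.2% of its words also occur in the mitochondrial genome. Their part in the score was not tested. The other genes of the 12 were ENSG00000290948 (116), ENSG00000291210 (101), ENSG00000283360 (91.2), TSPAN14-AS1 (90.4), ENSG00000291149 (79.4), ENSG00000235726 (78.1) and ENSG00000279072 (73.1), of which TSPAN14-AS1 had under 50% repeated (37.2%). Among hotspots with under 50% repeated, it was followed by ENSG00000291177 (59.0), ENSG00000244459 (57.5) and LINC02018 (56.8), and both DANCR (48.9) and CHASERR (48.5), a regulator of its neighbour CHD2, stood among the highest 12.

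**Figure D5:**
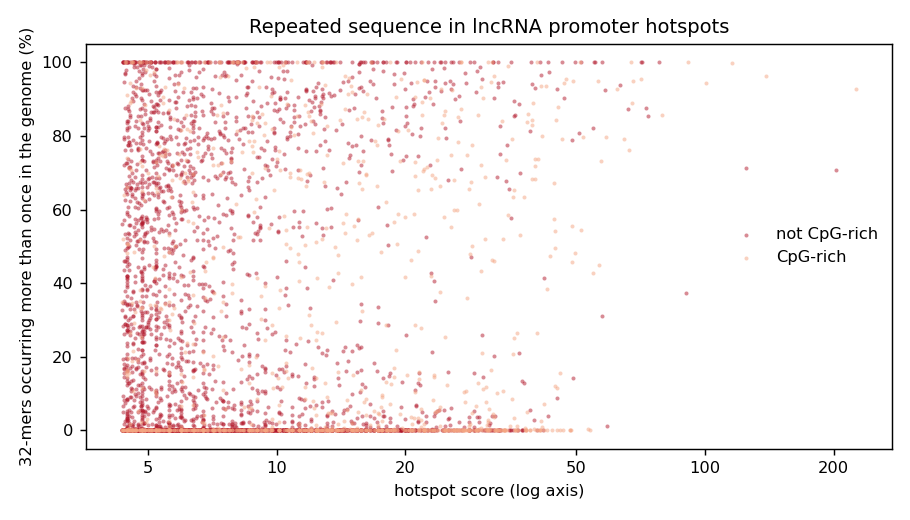
Share of 32-base words that occur more than once in the genome (%) against hotspot score (log axis), 1 point per lncRNA promoter hotspot of at least 32 bp, coloured by CpG content. Points with a score over 100 lie between 70.7% and 99.8% repeated.

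The widest lncRNA promoter hotspots after ROCK1P1 lay at ENSG00000287122 (4659 bp), ENSG00000290548 (4552 bp), FLJ43315 (4155 bp) and ENSG00000288838 (4030 bp), which all had at least 50% of their words repeated. The other 5 of the widest 10 were at ENSG00000289159 (3637 bp, score 41.5), LINC02298 (3275 bp, score 26.99), LINC00324 (3145 bp, score 23.8), DLEU2 and MIR17HG, each with at most 5.14% repeated.

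The lncRNA genes nearest to the hotspots lay between protein-coding genes in 3596 cases, antisense to one in 1550, on the same strand as one in 340 and across both kinds in 128. Median scores were 6.51 (6.36 to 6.74) between genes, 6.03 (5.95 to 6.24) antisense, 6.17 (5.99 to 6.45) on the same strand and 6.39 (5.85 to 8.09) for the last kind. The highest of each were ROCK1P1 between genes, FAM66E antisense, LINC01138 (51.2, with 100% repeated words) on the same strand and ENSG00000291149 for both. By distance to the nearest protein-coding TSS, the medians were 6.08 (5.88 to 6.36) within 5 kb (911 hotspots), 6.35 (6.08 to 6.53) at 5 to 20 kb (1290), 6.74 (6.41 to 6.89) at 20 to 100 kb (2012) and 6.29 (6.03 to 6.40) beyond 100 kb (1401). The nearest protein-coding gene itself had a promoter hotspot in 82.4% (81.4 to 83.4) of cases.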

How the data were processed

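ATAC-seq was performed in MCF10A cells in 5 replicate libraries. The authors aligned reads to hg38 with Bowtie2, pooled the libraries, removed duplicates and called hotspots with Hotspot at an FDR of 0.01. Mitochondrial reads were dropped for the authors' coverage track, but no such step, nor a shift of Tn5 cuts, is described for the pooled alignments given to Hotspot. The deposited values are 1 score per hotspot, used as given. Depth per library is unknown.

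Hotspots were classed by overlap with TSSs of GENCODE release 44 (46988 lncRNA TSSs). Every hotspot lay inside its hg38 chromosome. Medians have order-statistic intervals and shares Wilson intervals, at 95%. Since there is 1 group and 1 pooled list, no test was run. Genes named are those of fixed lists, the 12 highest and 10 widest hotspots, the highest by relation to protein-coding genes and the 10 genes with most hotspots. Markers were named as a check, and the highest hotspots with under 50% repeated words after their values were seen. Members and lists were chosen with earlier results of these data known. Functions were tested on simulated data. Alternatives were other TSS windows, TSS sets, overlap rules, score thresholds and chromosomes, and the whole hotspot. Scripts ran in Python 3.11.15 (pandas 2.3.3, numpy 2.4.6, numba 0.67.0, scipy 1.17.1) and plots were drawn with matplotlib 3.10.9.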

Additional observations from a re-analysis of the deposited data

How the results depend on the processing

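The count of lncRNA promoter hotspots stayed within 1.5 times of the 5614 given under every alternative but 1, hotspots above the median score only, which left 3253 by construction. That setting also gave 16.0% of lncRNA genes with a hotspot, a median score of 9.75, 24.3% in the top decile, a median GC of 57.5% and shares of 7.78% for AP-1, 1.23% for CTCF and 4.64% for SP/KLF. A TSS window of 500 bp gave 20.2% of genes, a median score of 6.87, 17.4% in the top decile, a GC of 57.5% and 4.01% for SP/KLF, and a window of 2000 bp gave 30.5%, 6.06, 11.7%, a GC of 55.0% and 2.65%. The share of genes was 20.6% for hotspots over 5000 bp from protein-coding TSSs, 25.6% with coding transcripts of coding type only, 22.9% by hotspot midpoint and 23.9% without chromosome 20 and chromosome 5 beyond 120 Mb. Canonical lncRNA transcripts alone gave 20.7% of genes, a median score of 6.44, 16.0% in the top decile and a GC of 57.5%. Over the whole hotspot the GC was 55.7% and the shares were 16.2% for AP-1, 2.16% for CTCF and 11.2% for SP/KLF. For 1 alternative, chosen after seeing the data, namely hotspots with under 50% of their 32-base words repeated, 19.9% of genes had a hotspot, the median score was 6.16, 12.2% were in the top decile and 7.89% had AP-1. The other 42 values stayed within their interval, or for the count within 1.5 times, and the cause of the moves was not tested. No replicate could be left out and no paired analysis was possible because the 5 libraries were pooled before calling and form 1 group.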

Other observations

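By chromosome, the share of lncRNA genes with a lncRNA promoter hotspot was between 19.1% (chromosome 4) and 28.5% (chromosome 5) on 21 of the autosomes and 39.96% (interval 35.7 to 44.4) on chromosome 20. Beyond 120 Mb of chromosome 5, a part that the 28.5% of the whole chromosome includes, it was 39.8% (35.2 to 44.6). With all classes of hotspot counted together, there were 138 per Mb on chromosome 20 and 128 per Mb beyond 120 Mb of chromosome 5. The other autosomes, each taken whole and with chromosome 5 included, had 39.7 to 108.5 per Mb. No other part of a chromosome was looked at separately. The median score of lncRNA promoter hotspots was 5.85 (5.60 to 6.36) on chromosome 20, 6.30 (5.92 to 6.74) beyond 120 Mb of chromosome 5 and 6.36 (6.33 to 6.46) on the rest. DNA copy number was not measured, and its part in these densities was not tested.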
